A study of Mus musculus with 30 samples.

Results

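The genes described here are 10 regulators of muscle loss and muscle growth, picked by symbol from the gastrocnemius count table: Fbxo32, Trim63, Mstn, Foxo1, Foxo3, Fst, Igf1, Igf1r, Igfbp5 and Gadd45a. Each symbol matched 1 row of the 55487 genes in the gastrocnemius table, and the same gene identifiers were used for comparison in kidney. All 10 passed the filter on low counts in gastrocnemius, where 15419 genes were tested. In kidney 9 of the 10 passed, among 17120 genes tested, because Mstn had no counts there.

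In GENCODE M21 coordinates (GRCm38), Fbxo32 lies at chr15:58175879-58214932 on the minus strand, Trim63 at chr4:134315120-134329629 on the plus strand, and Foxo1 at chr3:52268336-52353221 on the plus strand. Foxo3 (chr10:42181841-42276755, minus) and Igf1 (chr10:87858265-87937042, plus) share a chromosome, as do Mstn (chr1:53061640-53068079, plus) and Igfbp5 (chr1:72857932-72874884, minus). Igf1r lies at chr7:67952827-68233668 on the plus strand, Fst at chr13:114452290-114458951 and Gadd45a at chr6:67035096-67037457, both on the minus strand. Values are counts per gene and do not separate transcripts.

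Muscle fibres set their size by balancing protein breakdown against protein synthesis. FoxO transcription factors switch on the muscle ubiquitin ligases atrogin-1 and MuRF1, encoded by Fbxo32 and Trim63, which mark fibre proteins for the proteasome. Insulin-like growth factor 1, acting through its receptor and AKT, keeps FoxO proteins out of the nucleus and promotes synthesis, while myostatin, a TGF-beta family hormone made by muscle and blocked by follistatin, restrains growth.

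The study asked whether cyclo(His-Pro) (CHP), a cyclic dipeptide, protects mice with diet-induced fatty liver disease, and sequenced RNA from kidney and gastrocnemius to see its effects outside the liver. Male C57BL/6J mice, wild type, were kept in thermoneutral cabinets at 30 to 32 °C from 6 weeks of age and, from Week 7, ate a chow diet (CD) or a western diet (WD) rich in fat and sucrose. CD and WD mice received water by gavage, and WD + CHP mice received 20 mg/kg CHP 3 times a week. Mice were fasted for 3 h and killed at Week 24, and each of the 3 groups had 5 libraries per tissue, 30 in all. Warm housing was shared by every group, so no group shows the genes at ordinary room temperature, and CHP was not given to CD mice. The labels do not say whether a kidney and a gastrocnemius came from the same mouse.

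Libraries held between 50319024 and 53282969 counts in gastrocnemius and between 37189192 and 38211422 in kidney. Markers matched the tissue labels: all 12 fast-fibre markers passed the filter in gastrocnemius against 4 in kidney, and 10 proximal tubule markers passed in kidney against 2 in gastrocnemius. Other cell types moved with diet in gastrocnemius. The summed fast-fibre level was 254029 to 297962 CPM (counts scaled to library size) in CD. It was 224880 to 256433 CPM in WD and 232881 to 270631 CPM in WD + CHP. Of the 12 listed markers only Ckm and Acta1, which are not particular to fast fibres, passed in WD vs. CD, and both fell. The summed adipocyte level was 1139 to 1561 CPM in CD, 1121 to 1593 in WD and 965 to 1378 in WD + CHP, yet 4 of its 10 markers, Lep, Cidec, Plin1 and Adipoq, rose and Cfd fell in WD vs. CD. The 8 slow-fibre markers were all higher in WD than in CD by fitted fold change, with a median of 0.59. All 8 macrophage markers (median 0.31) and all 5 Schwann cell markers (median 0.28) were higher too. None of these markers passed, and in the 3 lists 4, 3 and 0 had an unadjusted p under 0.05. In bulk tissue, fewer cells of a type and less RNA per cell cannot be told apart.

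The RefSeq table of promoters (GRCm38.p6) held 8 of the 10 genes, all except Fbxo32 and Fst. Each window covers the 250 bases before the gene's start in RefSeq, read 5′ to 3′ on the gene's strand. The windows were searched on both strands for the FoxO binding core GTAAACA. They were also searched for the TATA box TATAAA, the steroid receptor half-site letters TGTTCT, the CCAAT box, the GC box GGGCGG and the SMAD palindrome GTCTAGAC. The sequences of Trim63 and Igfbp5 are shown because Trim63 alone of the 8 windows held the FoxO core, and because Igfbp5 was called in opposite directions in the 2 tissues in WD vs. CD. Capitals mark the matches: in Trim63, TGTTCT runs into the FoxO core on the opposite strand, and TATAAA lies near the start.
The Trim63 window lies at chr4:134314870-134315119 on the plus strand, and that of Igfbp5 at chr1:72874866-72875115 on the minus strand.
Trim63: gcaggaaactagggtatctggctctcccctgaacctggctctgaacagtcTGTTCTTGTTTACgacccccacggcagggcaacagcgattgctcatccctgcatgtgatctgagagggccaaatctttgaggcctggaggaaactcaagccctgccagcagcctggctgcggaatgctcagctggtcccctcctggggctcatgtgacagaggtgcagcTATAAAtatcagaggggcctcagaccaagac
Igfbp5: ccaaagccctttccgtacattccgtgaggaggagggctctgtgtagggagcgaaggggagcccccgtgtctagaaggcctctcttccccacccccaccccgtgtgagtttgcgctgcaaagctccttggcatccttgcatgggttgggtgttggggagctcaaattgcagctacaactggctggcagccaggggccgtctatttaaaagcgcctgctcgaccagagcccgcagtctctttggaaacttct
In Trim63 the FoxO core began 194 bases before the start, TGTTCT 200 bases and TATAAA 31 bases before it. Of 32851 promoter windows of this length, 3.17% held the FoxO core, 12.4% the TATA box, 16.1% the half-site letters, 33.8% the CCAAT box, 32.7% the GC box and 0.167% the SMAD palindrome. The TATA box was also present in Mstn, 29 bases before the start. The Igfbp5 window held none of the letters searched. RefSeq and GENCODE starts differ: the GENCODE starts of Igfbp5, Foxo3 and Gadd45a fall inside their windows, that of Foxo1 on the last base of its window, the Igf1 window lies wholly inside the GENCODE gene, and the Igf1r window ends upstream of the GENCODE start. Only for Trim63 and Mstn do the 2 annotations share a start. A match is a description of letters and was not tested as a binding site.

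At baseline the genes spanned a wide range in muscle. Per kb of exon, the mean level in CD gastrocnemius was highest for Igfbp5 (134 CPM per kb, range 123 to 146), a secreted protein that binds insulin-like growth factors. Fbxo32 (101, range 89.5 to 129) and Trim63 (99.8, range 89.0 to 115) followed and overlapped each other. Mstn came next at 32.7 CPM per kb and Gadd45a, a stress and DNA damage response gene that denervation raises in muscle, at 12.1. The transcription factor Foxo3 stood at 4.74 and Foxo1 at 2.47 CPM per kb. Igf1 (1.23, range 1.01 to 1.39) overlapped its receptor gene Igf1r (1.06, range 0.928 to 1.18), and Fst, the gene for follistatin, was lowest at 0.718 CPM per kb, with a range of 0.532 to 0.932 that touched that of Igf1r.

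In CD kidney the order was different. Igfbp5 led again at 90.3 CPM per kb, then Igf1r at 17.5, Foxo3 at 14.1, Foxo1 at 7.94, Gadd45a at 5.93 and Trim63 at 3.23. The ranges of Igf1r and Foxo3 overlapped, as did those of Foxo1 and Gadd45a. Igf1 (0.780) and Fst (0.479) were low, with ranges that overlapped, and Fbxo32 was at 0.125 CPM per kb, from 21 to 47 counts per library over the 15 kidney libraries. Mstn had 0 counts in 15 of 15 kidney libraries, where a count of 0 allows a level of up to 0.0785 to 0.0807 CPM (3 counts of the library total, counting error only).

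**Figure D1:**
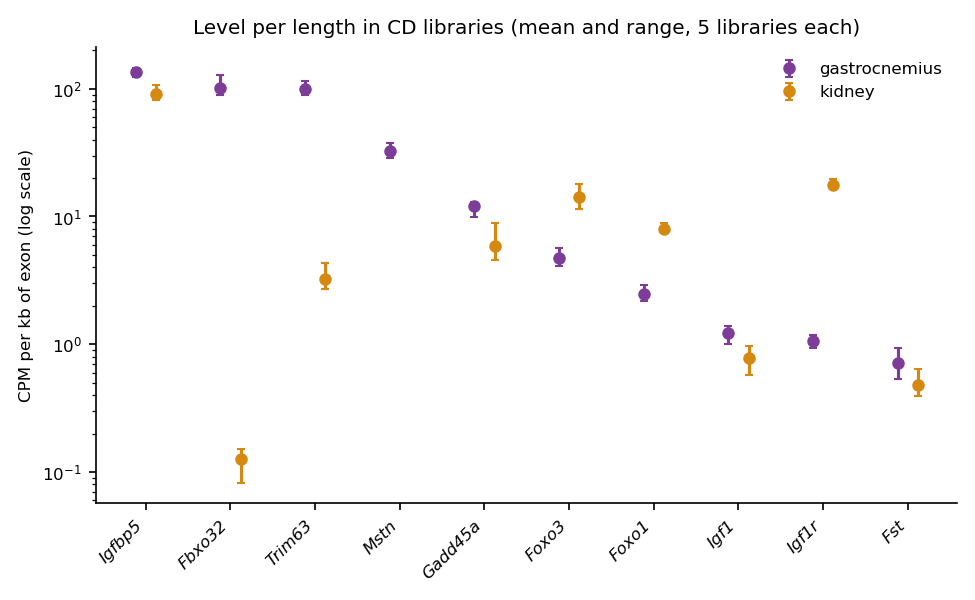
Mean CPM per kb of exon (log scale) of each gene in CD gastrocnemius and CD kidney, with the range over 5 libraries. Fbxo32 and Trim63 stand at 101 and 99.8 in gastrocnemius against 0.125 and 3.23 in kidney, Igf1r stands higher in kidney, and Mstn, at 0 in kidney, has no kidney point.

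WD vs. CD in gastrocnemius showed what the western diet did to these genes in muscle without CHP. Of the 10 genes, 4 were downregulated and none was upregulated at an adjusted p under 0.05 (edgeR quasi-likelihood test, Benjamini-Hochberg over all genes): Fbxo32, Igf1, Igfbp5 and Gadd45a. Over all genes tested, 8.63% passed in either direction and 3.96% passed as lower in WD. The 10 genes were chosen with earlier results of these data known. The median log2 fold change of the 10 genes was -0.21, and that of all 15419 genes was 0.0013. The plot of CPM by library shows the values behind these tests.

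**Figure D2:**
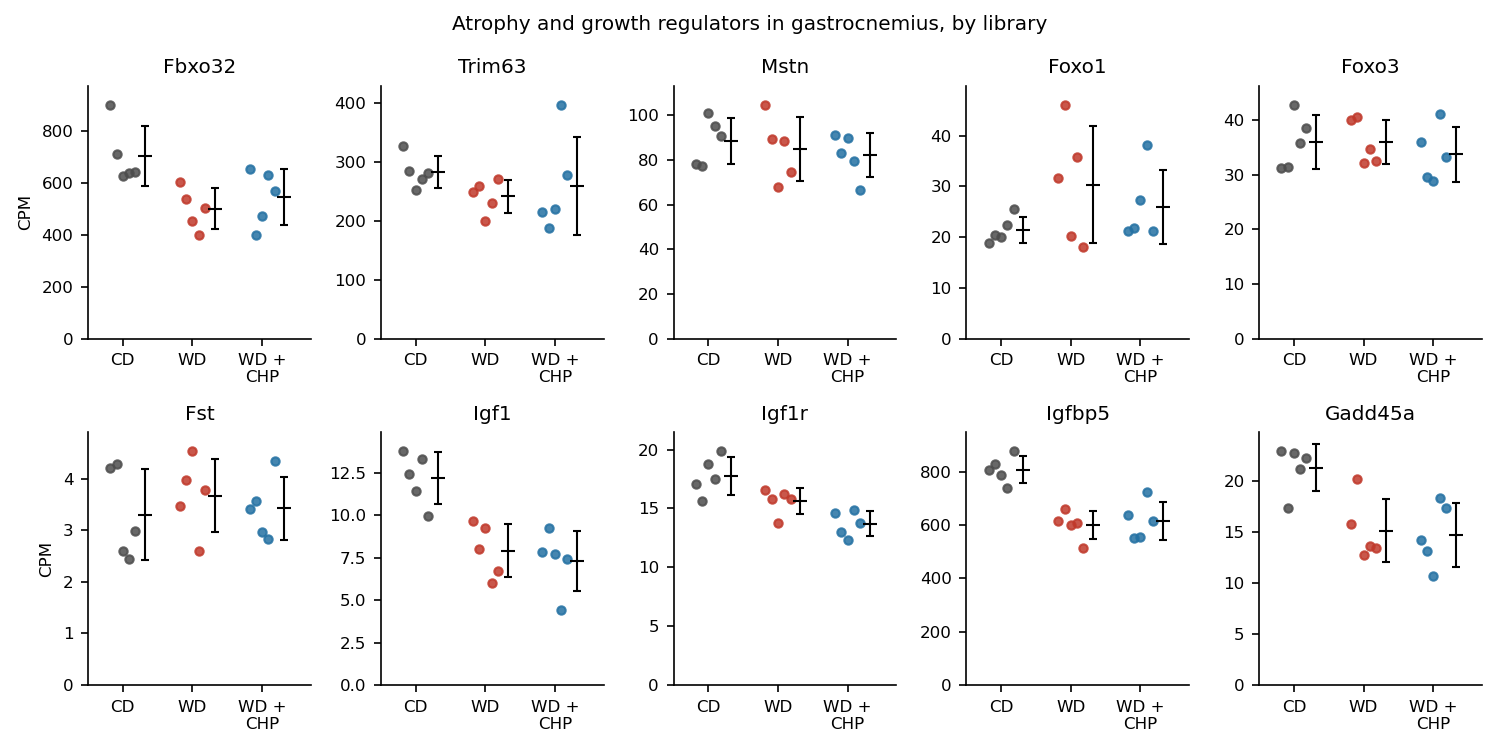
CPM of the 10 genes in each gastrocnemius library of CD, WD and WD + CHP mice (points), with mean and SD of the 5 libraries beside them and axes from 0. The WD points of Fbxo32, Igf1 and Igfbp5 all lie under the lowest CD point, and the Foxo1 points of WD spread from 18.1 to 46.1 CPM.

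Fbxo32, the gene of the ligase atrogin-1, was 900, 710, 624, 635 and 639 CPM in CD replicates 1 to 5. In WD it was 604, 536, 453, 399 and 504 CPM. Every WD library lay below every CD library, and CD replicate 1 stood well above the other CD libraries. The mean was 702 ± 116 CPM in CD and 499 ± 78.2 in WD (SD, n = 5), and Fbxo32 fell by 28.8% (log2 fold change -0.49 ± 0.14 (SE), adjusted p = 0.0388). The call was close to the threshold: it held in 2 of the 10 fits that left out 1 CD or WD library (CD replicate 3 or WD replicate 1), and leaving out any of the other 8 gave adjusted p-values of 0.0506 to 0.0968, the highest of them without CD replicate 1. The Fbxo32 call was also lost with total counts in place of TMM. An antisense gene, Gm15943, overlaps 186 bases of Fbxo32 exons, and reads of the pair cannot be separated because the strand setting of the counts is not given in the sources used here.

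Trim63, the gene of the ligase MuRF1, did not follow Fbxo32 past the threshold. It was 253 to 328 CPM in CD and 200 to 271 CPM in WD, groups that overlapped. Its log2 fold change was -0.23 ± 0.16 (SE), with a 95% interval of -0.56 to 0.10 and an adjusted p of 0.391.

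Foxo1, a FoxO factor that responds to fasting and insulin, varied most within WD. Its CD libraries were 18.8, 20.5, 19.9, 22.4 and 25.4 CPM, and its WD libraries were 31.6, 46.1, 20.1, 35.7 and 18.1 CPM. WD replicates 1, 2 and 4 stood above every CD library, replicate 3 lay among them and replicate 5 below them all. For WD vs. CD this gave a log2 fold change of 0.50 ± 0.22, with an unadjusted p of 0.0371 and an adjusted p of 0.177. The log2 fold change of Foxo1 was 0.30 without WD replicate 2 and 0.64 without WD replicate 5. Gm20402, an antisense gene, overlaps 674 bases of its exons. Foxo3 was 35.9 ± 4.95 CPM in CD and 36.0 ± 4.02 CPM in WD (SD, n = 5), and the 95% interval of its log2 fold change ran from -0.22 to 0.23.

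Mstn and Fst, the growth inhibitor and its antagonist, gave no call. Mstn was 77.5 to 101 CPM in CD and 67.7 to 105 CPM in WD, with a log2 fold change of -0.06 (95% interval -0.30 to 0.18). Fst was 2.44 to 4.28 CPM in CD and 2.60 to 4.53 CPM in WD, from 120 to 248 counts, with a log2 fold change of 0.15 (95% interval -0.22 to 0.53). Fst shares 115 exon bases with the antisense gene Gm47040.

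Of the 3 genes of the growth factor system, Igf1 and Igfbp5 fell and Igf1r did not pass. Igf1, which encodes the growth factor itself, was 13.8, 12.4, 11.4, 13.3 and 9.97 CPM in CD and 9.65, 8.00, 9.23, 6.04 and 6.72 CPM in WD. Every WD library lay below every CD library, although CD replicate 5 and WD replicate 1 were close. Igf1 fell by 35.0% (log2 fold change -0.62 ± 0.16, adjusted p = 0.0252). Of the 10 fits without 1 CD or WD library, 5 kept the call, and leaving out CD replicate 1, CD replicate 4 or WD replicate 2, 4 or 5 gave adjusted p-values of 0.0501 to 0.0610. Liver is the main source of the circulating hormone, and the summed level of 8 hepatocyte markers was 31.3 to 113 CPM in CD, highest in CD replicate 1. It was 30.5 to 124 CPM in WD, highest in WD replicate 3, and 22.8 to 35.7 CPM in WD + CHP, and no marker passed in any gastrocnemius comparison. In fitted log2 fold change, all 5 hepatocyte markers tested were lower in WD + CHP, with a median of -3.66 against WD (5 at an unadjusted p under 0.05) and -3.34 against CD (4 at an unadjusted p under 0.05). Their part in the Igf1 values was not tested. In WD vs. CD the log2 fold change of Igf1 was -0.57 without CD replicate 1 and -0.68 without WD replicate 3.

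Igf1r, the receptor gene, was 17.1, 15.6, 18.8, 17.5 and 19.9 CPM in CD and 16.5, 15.8, 13.7, 16.2 and 15.8 CPM in WD. The groups overlapped through CD replicate 2. Igf1r differed by -0.19 ± 0.072 on the log2 scale, with an unadjusted p of 0.0196 and an adjusted p of 0.120.

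Igfbp5, the binding protein gene, had the smallest adjusted p of the 10. It was 807, 827, 788, 737 and 876 CPM in CD and 615, 661, 601, 606 and 514 CPM in WD. The lowest CD library stood clear of the highest WD library, and the spread within each group was small. Igfbp5 fell by 25.7% (log2 fold change -0.43 ± 0.079, adjusted p = 0.00277). The call held without any 1 of the 10 CD and WD libraries, with adjusted p-values of 0.00353 to 0.0094.

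Gadd45a was 22.9, 17.3, 22.7, 21.2 and 22.3 CPM in CD and 15.8, 20.2, 12.7, 13.6 and 13.4 CPM in WD. CD replicate 2 was the low library of its group and WD replicate 2 the high one, and only through them did the groups overlap. Gadd45a fell by 28.9% (log2 fold change -0.49 ± 0.14, adjusted p = 0.0413). Of the 10 fits without 1 CD or WD library, those without CD replicate 2 or WD replicate 2 kept the call, and the other 8 gave 0.0679 to 0.0965. Leaving out WD + CHP replicate 1, which enters the shared estimate of spread, gave 0.0506. The call was also lost with total counts in place of TMM (0.0523), without a filter on low counts (0.0543) and with the replicate number as a block (0.0669). E230016M11Rik, on the opposite strand, shares 337 bases with its exons.

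Adipocyte markers moved with all 4 of these calls. An adipocyte score, the mean centred log2 CPM of the 10 adipocyte markers, ran from -0.57 to -0.08 in CD and from 0.35 to 0.60 in WD, so that 86.7% of its variance over these libraries lay between the diets. With the score as a covariate the log2 fold changes were -0.28 for Fbxo32, -0.56 for Igf1, -0.43 for Igfbp5 and -0.42 for Gadd45a, their standard errors about doubled (0.29, 0.33, 0.16 and 0.30), and 0 of the 10 passed. Only 3 genes of the whole table passed in that fit, against 1330 without the score. Of the endothelial markers Cldn5 also fell in WD vs. CD (-0.67). In these libraries diet and adipocyte score cannot be told apart.

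WD + CHP vs. WD asked whether CHP changed these genes on the western diet, and no gene of the 10 passed. Over all genes 0.409% passed. The count was also 0 with DESeq2 and with limma-voom, and 1 gene, Igf1r, had an unadjusted p under 0.05. The log2 fold changes ran from -0.23 for Foxo1 to 0.12 for Fbxo32. Without 1 WD or WD + CHP library, Foxo1 ran from -0.41 to -0.025 and Fbxo32 from 0.047 to 0.22. Markers of other cell types moved in this comparison: the adipocyte markers Lep, Cidec, Plin1 and Adipoq fell, and the 5 tendon markers had a median log2 fold change of -0.91 with none called and 4 at an unadjusted p under 0.05. Pck1, of the proximal tubule list, also fell (-0.89). All 8 macrophage (median -0.26), all 8 slow-fibre (-0.28) and all 5 Schwann cell markers (-0.30) were lower in WD + CHP by fitted fold change, with none called. A p that misses the threshold does not show equal levels, and the 95% intervals give the sizes these libraries allow.

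Igf1r was 14.6, 13.0, 12.3, 14.9 and 13.7 CPM in WD + CHP, against 13.7 to 16.5 CPM in WD. Every WD + CHP library lay below WD replicates 1, 2, 4 and 5, and the groups overlapped because WD replicate 3 was low. Igf1r differed by -0.19 ± 0.072 on the log2 scale (95% interval -0.34 to -0.04), with an unadjusted p of 0.0182 and an adjusted p of 0.281.

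The WD + CHP levels of the 4 genes called in WD vs. CD overlapped those of WD. Igfbp5 was 638, 552, 553, 724 and 615 CPM in WD + CHP, with a log2 fold change against WD of 0.04 (95% interval -0.13 to 0.21). Igf1 was 7.84, 9.23, 7.69, 4.39 and 7.41 CPM, with a log2 fold change of -0.12 (-0.46 to 0.23). Gadd45a was 14.2, 13.1, 10.7, 18.3 and 17.4 CPM, with a log2 fold change of -0.04 (-0.34 to 0.26). For Fbxo32, at 652, 397, 470, 628 and 569 CPM, the log2 fold change was 0.12 (-0.17 to 0.42), and the libraries of WD + CHP spanned the whole WD range and beyond.

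WD + CHP replicate 4 drew its group apart in several genes, a pattern chosen after its values were seen. It had the highest Trim63 (398 CPM, against 188 to 278 in the rest of its group), Foxo1 (38.1 CPM), Foxo3 (41.0 CPM), Igfbp5 (724 CPM) and Gadd45a (18.3 CPM) of the 5, and the lowest Igf1 (4.39 CPM). Fbxo32 in it was 628 CPM, below the 652 CPM of replicate 1.

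WD + CHP vs. CD compared the treated mice with the lean controls. It shares its CD libraries with WD vs. CD and its WD + CHP libraries with the comparison above, so the results are not independent. Again 4 of the 10 were downregulated and none upregulated, with 9.40% of all genes passing in either direction and 4.55% passing as lower. Igf1 fell by 40.0% (log2 fold change -0.74 ± 0.16, adjusted p = 0.00994), Igfbp5 fell by 23.6% (-0.39 ± 0.079, adjusted p = 0.00578) and Igf1r fell by 22.9% (-0.37 ± 0.072, adjusted p = 0.00442). In these 3 genes every WD + CHP library lay below every CD library, and the calls held without any 1 CD or WD + CHP library.

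Gadd45a fell by 30.8% (log2 fold change -0.53 ± 0.14, adjusted p = 0.0278), with groups that overlapped. Its call held in 3 of the 10 fits without 1 CD or WD + CHP library (CD replicate 2, WD + CHP replicate 4 or 5), and the other 7 gave adjusted p-values of 0.0516 to 0.0718. Fbxo32, called in WD vs. CD, had a log2 fold change of -0.37 ± 0.14 here and did not pass (adjusted p = 0.107). With the adipocyte score as covariate the same 4 genes, Igf1, Igf1r, Igfbp5 and Gadd45a, passed, and the score of WD + CHP (-0.58 to 0.07) overlapped that of CD. Tendon markers moved with this comparison. Their summed level was 317 to 679 CPM in CD and 201 to 291 CPM in WD + CHP, and 3 of the 5 (Fmod, Comp and Thbs4) fell. Single markers of other lists were called too: Dcn of the fibroblast list (-0.57), Cldn5 of the endothelial list (-0.65), Pck1 of the proximal tubule list (-0.71) and Cfd of the adipocyte list (-1.59) fell, and Lep rose (2.08). The hepatocyte markers were lower too, as given with Igf1. The part of all these markers in the results was not tested.

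**Figure D3:**
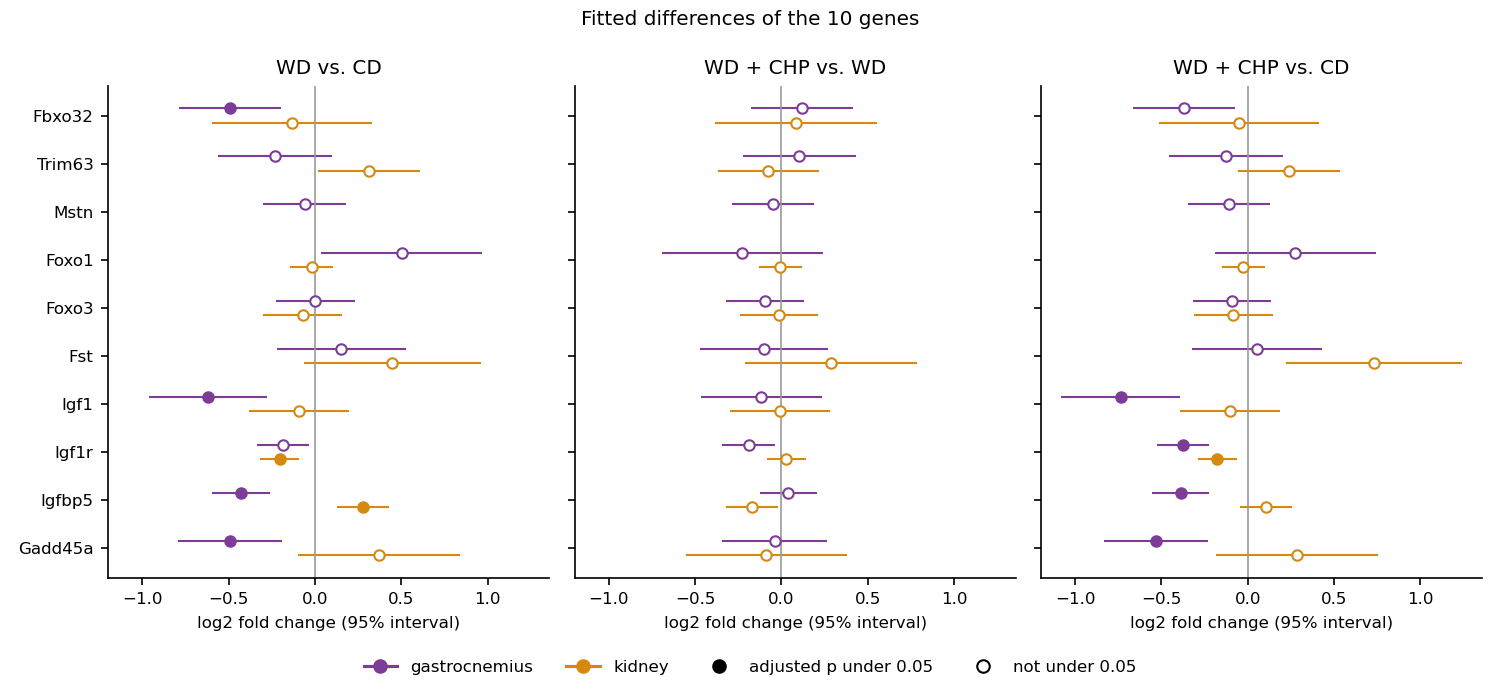
Log2 fold changes with 95% intervals of the 10 genes in the 3 comparisons, in gastrocnemius and kidney; filled points have an adjusted p under 0.05. Igfbp5 lies at -0.43 in gastrocnemius and 0.28 in kidney in WD vs. CD, and no point is filled in WD + CHP vs. WD.

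In kidney, WD vs. CD gave 2 calls among the 9 genes tested, against 9.65% of all kidney genes. Igf1r was 294, 278, 286, 281 and 330 CPM in CD and 270, 273, 242, 241 and 251 CPM in WD. No WD library reached the CD range. It fell by 13.2% (log2 fold change -0.20 ± 0.053, adjusted p = 0.0233). Of the 10 fits without 1 CD or WD library 5 kept the call, and leaving out WD replicate 3, 4 or 5 or CD replicate 1 or 5 gave 0.0535 to 0.0719.

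Igfbp5 rose in kidney. It was 642, 551, 494, 533 and 492 CPM in CD and 615, 654, 635, 680 and 707 CPM in WD. CD replicate 1 was the only CD library inside the WD range. Igfbp5 rose by 21.4% (log2 fold change 0.28 ± 0.071, adjusted p = 0.0213), and the call held without any 1 CD or WD library (adjusted p at most 0.0489).

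Markers of other cell types moved with diet in kidney as well. All 9 fibroblast markers were higher in WD than in CD by fitted fold change, with a median of 0.27, and 1 passed. Their summed level was 97.7 to 127 CPM in CD and 114 to 131 CPM in WD. Of the 10 proximal tubule markers 3 fell and 1 rose, and their sum was 38272 to 41407 CPM in CD and 34428 to 37630 CPM in WD, with no overlap. All 8 hepatocyte markers were higher in WD by fitted fold change, 1 of them called, with the highest sum, 817 CPM, in WD replicate 5. Of the 8 adipocyte markers tested 2 fell (list median -0.29), and of the 4 fast-fibre markers tested 1 rose. The part of these markers in the kidney Igfbp5 and Igf1r results, and in the tissue difference of Igfbp5, was not tested.

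Gadd45a and Trim63 each had a high library in CD kidney, replicate 3. Gadd45a was 15.8 CPM there against 8.04 to 9.72 in the other 4, and 9.56 to 19.8 CPM in WD, with a log2 fold change of 0.37 ± 0.22 (adjusted p = 0.318). The log2 fold change of Gadd45a was 0.19 without WD replicate 3 and 0.57 without CD replicate 3. Trim63 was 12.4 CPM in CD replicate 3 against 7.63 to 8.79 in the other 4, and 8.76 to 14.3 CPM in WD, with a log2 fold change of 0.31 ± 0.14 (adjusted p = 0.170, and 0.0399 without CD replicate 3). Fst was 1.81 to 2.95 CPM in CD and 2.15 to 4.22 CPM in WD, with a log2 fold change of 0.45 ± 0.24 (adjusted p = 0.269). Foxo1, Foxo3, Igf1 and Fbxo32 had kidney log2 fold changes between -0.13 and -0.02 and were not called.

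CHP on the western diet gave no call among the 9 genes in kidney, where 0.105% of all genes passed. DESeq2 and limma-voom also called none. By edgeR Igfbp5 alone had an unadjusted p under 0.05 (0.0279), with a log2 fold change of -0.17 ± 0.071 and an adjusted p of 0.366. In WD + CHP its level was 635, 547, 571, 636 and 533 CPM, between those of CD and WD and overlapping both. With it, all 9 fibroblast markers (median -0.21) and all 6 endothelial markers (median -0.12) were lower in WD + CHP by fitted fold change, 2 and 3 of them at an unadjusted p under 0.05. Of the 8 hepatocyte markers 7 had an unadjusted p under 0.05, with a list median of -1.69. No marker of any list was called in this comparison, and their part in the Igfbp5 values was not tested.

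In WD + CHP vs. CD in kidney, Igf1r was called, against 12.1% of all genes. Its WD + CHP libraries, 245 to 274 CPM, lay below all CD libraries. It fell by 11.5% (log2 fold change -0.18 ± 0.053, adjusted p = 0.0400). Among the 10 fits without 1 CD or WD + CHP library the call held only without WD + CHP replicate 5, the other 9 giving 0.0511 to 0.139. It was also lost without WD replicate 2, 3, 4 or 5 (0.0506 to 0.0623), without a filter on low counts (0.0614) and with only the 2 groups compared (0.0620). Fst was 1.81 to 2.95 CPM in CD and 2.30 to 5.62 CPM in WD + CHP, with a log2 fold change of 0.73 ± 0.24 and an adjusted p of 0.0563. It passed with DESeq2 (0.0185), and by edgeR without a filter on low counts (0.0451), with the replicate number as a block (0.0120) and without CD replicate 3, WD replicate 3 or WD + CHP replicate 1 or 5. In this comparison all 6 endothelial markers of kidney were lower by fitted fold change, 2 of them called, and of the proximal tubule markers 1 rose and 2 fell. The fibroblast, hepatocyte, satellite cell, fast-fibre and slow-fibre lists each had 1 marker that rose, and the adipocyte and tendon lists each had 1 that fell. Their part in the Igf1r and Fst values was not tested.

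The difference between the tissues was then tested directly, as the effect in gastrocnemius minus the effect in kidney. For WD vs. CD, 1 of the 9 genes, Igfbp5, passed, against 4.13% of the 18708 genes tested. Its effect was lower in gastrocnemius by 0.71 on the log2 scale (-0.71 ± 0.11, adjusted p = 0.000232), and the call held in all 20 fits that left out 1 CD or WD library. All WD libraries of gastrocnemius lay below the CD libraries, and 4 of the 5 CD libraries of kidney lay below all WD libraries. Gadd45a differed by -0.86 ± 0.28 with an adjusted p of 0.0806, and passed without gastrocnemius WD replicate 2 or kidney CD replicate 3 (lowest adjusted p 0.0227). Differences of -0.55 for Trim63, -0.53 for Igf1 and 0.52 for Foxo1 had adjusted p-values of 0.187 to 0.248.

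The WD vs. CD effect on Igf1r had a difference between the tissues of 0.02 and a 95% interval of -0.16 to 0.20. For WD + CHP vs. WD 0 of the 9 genes passed with edgeR, DESeq2 or limma-voom, against 0.347% of all genes, and Igf1r alone had an unadjusted p under 0.05 (difference -0.21 ± 0.088, adjusted p = 0.333).

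**Figure D4:**
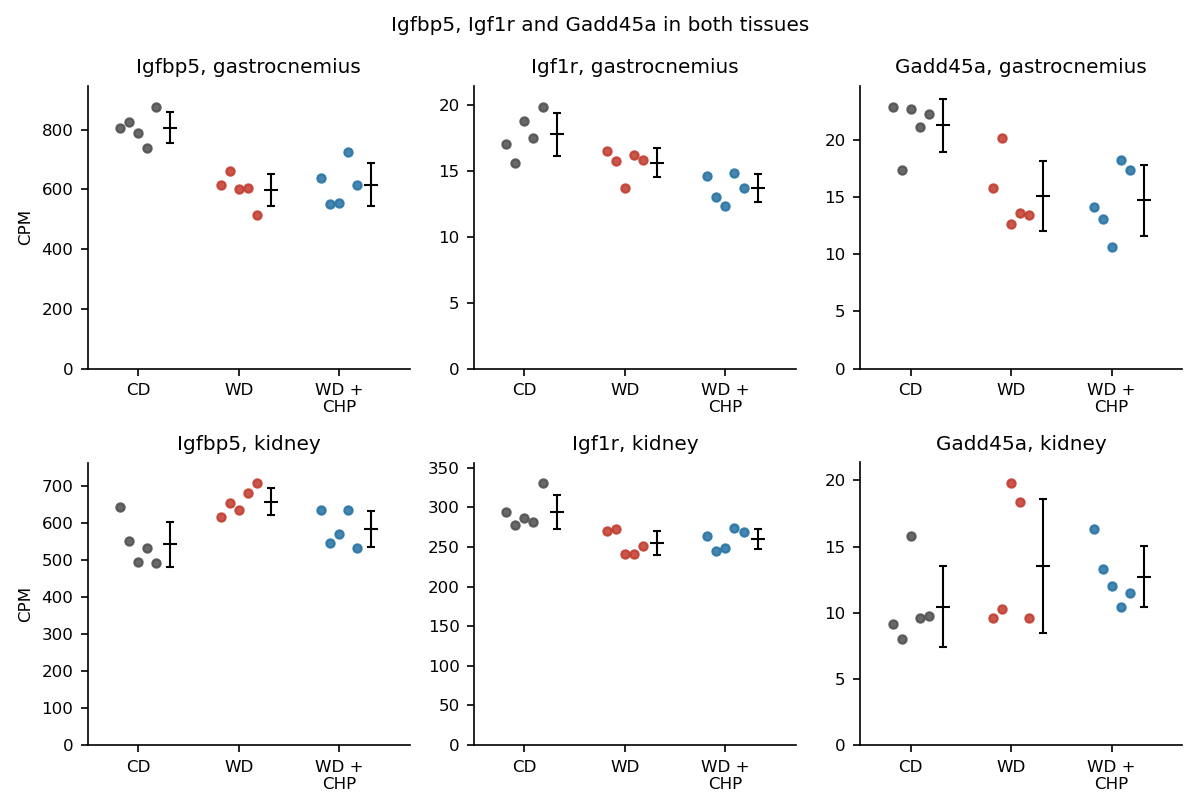
CPM by library of Igfbp5, Igf1r and Gadd45a in gastrocnemius (top) and kidney (bottom), with mean and SD of 5 libraries and axes from 0. Igfbp5 goes from 807 to 600 CPM in gastrocnemius and from 542 to 658 CPM in kidney between CD and WD, and Gadd45a of kidney has high libraries in both groups.

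The genes around the 10 were described with 6 lists of 131 genes written for this work, of which 127 were tested in gastrocnemius. The lists were written with earlier results of these data known, so their shares in each comparison are not independent of those results. In WD vs. CD 8 were upregulated and 12 downregulated, 15.7% of those tested against 8.63% of all genes, with a median log2 fold change of -0.011 against 0.0013. With the adipocyte score as a covariate 0 of the 127 passed in WD vs. CD, while 21 passed in WD + CHP vs. CD, as many as without it. Among FoxO partners and targets 5 of 19 passed, 1 higher and 4 lower, with a median of -0.13. Of the 22 ubiquitin ligase and proteolysis genes 3 passed, of the 14 autophagy genes 1 (7.14%), of the 24 myostatin, activin and BMP genes 3 (12.5%), of the 27 IGF axis genes 5, and of the 21 denervation, stress and glucocorticoid genes 3.

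Txnip, a glucose-sensing inhibitor of thioredoxin and of glucose uptake, had the smallest adjusted p. It was 944, 1101, 1019, 929 and 995 CPM in CD and 592, 612, 688, 583 and 580 CPM in WD, with no overlap (log2 fold change -0.71 ± 0.069, adjusted p = 2.55e-05). Pdk4, the kinase that shuts off pyruvate oxidation on fasting, was 1043 to 1472 CPM in CD and 635 to 920 CPM in WD (-0.76 ± 0.15, adjusted p = 0.00413). The cell cycle inhibitor gene Cdkn1b (-0.27, adjusted p = 0.00598) and Foxk1, a forkhead repressor of autophagy genes (-0.30, adjusted p = 0.0106), also fell.

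In the signalling lists Smad3, which carries myostatin and TGF-beta signals, fell from 132 ± 11.9 to 96.7 ± 7.24 CPM (SD, n = 5; log2 fold change -0.45, adjusted p = 0.0024). The kinase genes Akt2 (-0.25, adjusted p = 0.0031) and Akt1 (-0.20, adjusted p = 0.023) and the mTOR inhibitor gene Deptor (-0.41, adjusted p = 0.0225) fell. The proteasome subunit gene Psma1 rose slightly (0.25, adjusted p = 0.00587). Akt1 lost its call when CD replicate 3 or WD replicate 4 was left out, and Deptor when WD replicate 2 or CD replicate 4 or 5 was left out, with adjusted p-values of at most 0.0617 and 0.0667.

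Of the 21 denervation, stress and glucocorticoid genes 3 rose (14.3%) and none fell, with a median log2 fold change of 0.27, where 720 of the 15419 genes tested rose. The 3 were Dach2 (0.70, adjusted p = 0.00217), a repressor tied to the denervation response, Tnfrsf12a (1.21, adjusted p = 0.00364), the TWEAK receptor gene, and Ankrd1 (0.97, adjusted p = 0.0168), a stretch-responsive gene. Tnfrsf12a was 8.75 ± 3.31 CPM in CD and 20.2 ± 5.93 CPM in WD (SD, n = 5). The list sets no direction for its genes, so the rise of Dach2 does not by itself show a denervation response.

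In WD + CHP vs. WD 0 of the 127 passed with edgeR, and also 0 with DESeq2 and limma-voom, while 17 had an unadjusted p under 0.05, as did 1929 of all 15419 genes. The smallest p-values belonged to Hdac9 (log2 fold change -0.32, adjusted p = 0.141), Akt1 (0.17, adjusted p = 0.182) and Pik3r1 (-0.37, adjusted p = 0.192).

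In WD + CHP vs. CD 7 were upregulated and 14 downregulated, 16.5% of those tested against 9.40% of all genes. Txnip (-0.74, adjusted p = 2.20e-05), Cdkn1b (-0.37, adjusted p = 0.000933), Foxk1 (-0.41, adjusted p = 0.00172), Smad3 (-0.35, adjusted p = 0.0137) and Deptor (-0.49, adjusted p = 0.00744) were lower, and Tnfrsf12a (1.36, adjusted p = 0.00192), Dach2 (0.57, adjusted p = 0.00907) and Psma1 (0.21, adjusted p = 0.0171) were higher. The activin receptor gene Acvr2a (-0.40, adjusted p = 0.0073), the activin subunit gene Inhbb (-0.65, adjusted p = 0.0134), the lysosomal protease gene Ctsl (-0.30, adjusted p = 0.00925) and Hdac9 (-0.42, adjusted p = 0.0073) were also lower.

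**Figure D5:**
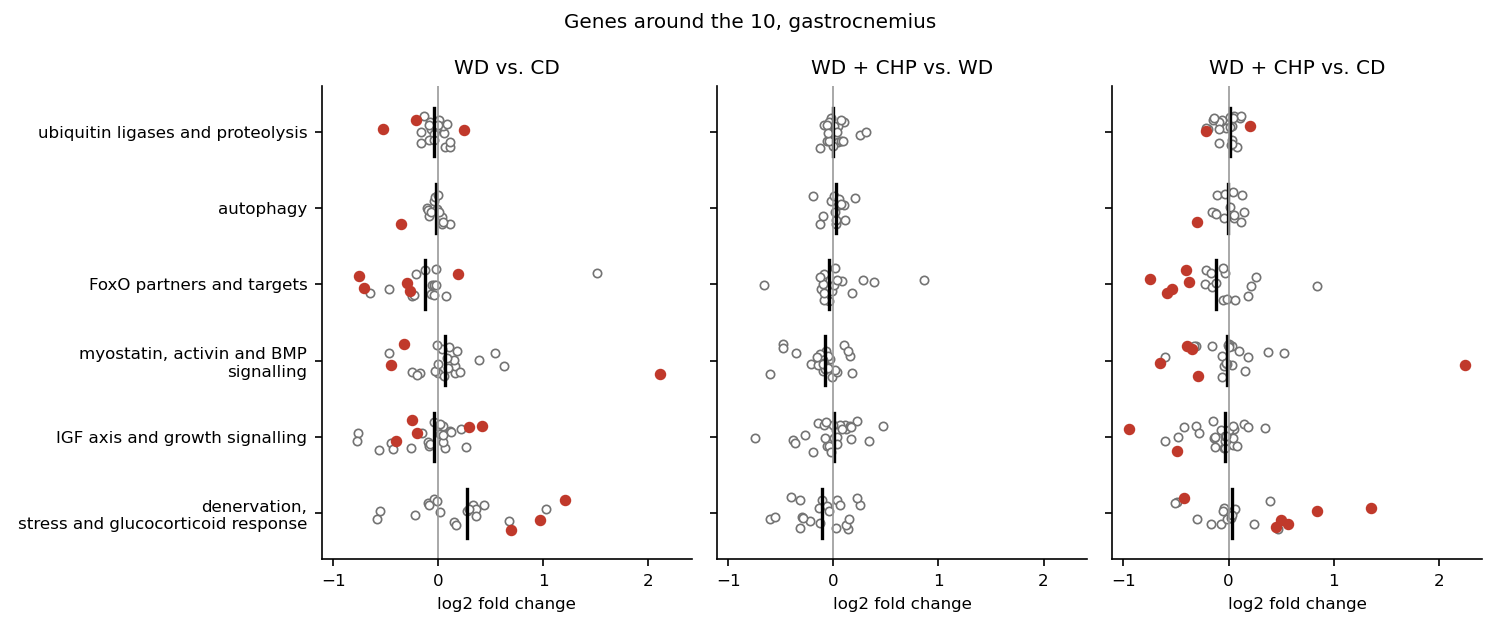
Log2 fold changes in gastrocnemius of the 127 tested genes around the 10, by list, in the 3 comparisons; red points have an adjusted p under 0.05, open points do not, and bars are medians. No point is red in WD + CHP vs. WD, and 20 and 21 are red in the comparisons with CD. In WD vs. CD the point beyond 2 is Gdf5 (2.11), a gene too low to be named by level. Gdf5 was also called higher in WD + CHP vs. CD.

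The genes whose log2 CPM most resembled that of each called gene were listed by Pearson correlation over the 15 gastrocnemius libraries, among 10856 genes. All points share the groups and library preparation, so the correlations carry no p. Igfbp5 was most like Pdk4 (r = 0.948), then Cnnm3 (0.922) and Tbc1d8 (0.913). Fbxo32 was most like Klhl38 (0.919), Srgap2 (0.896) and Utp23 (0.863), and Gadd45a was most like Mcm7 (0.901), Pnisr (0.894) and again Klhl38 (0.885). Klhl38 is the next protein-coding gene to Fbxo32 on chromosome 15, on the same strand and 99640 bases away (GRCm38), and fell by 0.67 on the log2 scale in WD vs. CD (adjusted p = 0.00806). For Igf1 the closest were Wnt5a (0.926), Camkk2 (0.923) and Aplp2 (0.882), and for Igf1r they were Stxbp3 (0.944), Zcchc24 (0.928) and Dnm3 (0.927).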

How the data were processed

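PolyA RNA of mouse gastrocnemius and kidney was sequenced on a BGISEQ-500, with 5 libraries for each diet group in each tissue. The authors deposited raw counts of reads per gene, with no normalisation. The submitters' processing notes name STAR 2.7.3a and the GRCm38 (mm10) genome; the counting tool and strand setting are not given in the sources used here. The labels mention liver as the extracted tissue, and the tissue characteristic was used here. Every column had a sample (0 without).

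The main test was the quasi-likelihood F test of edgeR 4.0.16 under R 4.3.3 (filterByExpr, minimum count 10, TMM, two-sided). The 3 groups of a tissue were fitted together, and a fit of all 30 libraries tested differences between tissues. P-values were adjusted by Benjamini-Hochberg over all genes tested, threshold 0.05, and intervals are 95%. CPM values use TMM-scaled library sizes, and log2 CPM a prior count of 2. Levels per kb use exon lengths of GENCODE M21. DESeq2 1.42.0, limma 3.58.1 (voom), other scalings, filters, sample sets, the replicate number as a block and leaving out each library were alternatives. The scripts were tested on simulated data. Figures used matplotlib 3.10.9 (Python 3.11.15).

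The members and lists were chosen with earlier results of these data known. All 10 members were named; of the list genes, up to 12 with the smallest adjusted p per comparison and a mean log2 CPM of at least 0, or the 3 smallest where fewer than 3 passed; and the 3 genes (mean log2 CPM of at least 1) most correlated with each called member. No library was a copy of another: chi-square per gene between libraries of a group was 9.61 to 74.6 in gastrocnemius and 8.82 to 24.7 in kidney. The labels do not say that libraries of a group came from separate mice, while the study's methods describe RNA from each mouse. P-values weigh a difference between groups against the spread between these libraries. Of the members, kidney Fbxo32 was the least deeply counted of those detected (21 to 47 counts).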

Additional observations from a re-analysis of the deposited data

Results flagged for a closer look

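In gastrocnemius of WD mice, Igf1r in replicate 3 was 13.7 CPM against 15.8 to 16.5 CPM in the other 4, a library far from its group. In CD kidney, replicate 3 stood apart in Trim63 (12.4 CPM against 7.63 to 8.79) and in Gadd45a (15.8 CPM against 8.04 to 9.72). Chance marks about 1 in 20 groups, and each gene, tissue and group with counts was searched, so some such flags are expected by chance. The effect of WD vs. CD on Igfbp5 differed between the tissues by -0.71 on the log2 scale (adjusted p = 0.000232, edgeR interaction test), with levels falling from 807 to 600 CPM in gastrocnemius and rising from 542 to 658 CPM in kidney.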

How the results depend on the processing

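The direction of every called member held in every alternative run, but several calls sat near the threshold. In gastrocnemius, WD vs. CD, the count of 4 became 2 with total counts in place of TMM, where Fbxo32 and Gadd45a had adjusted p-values of 0.0518 and 0.0523, and 3 without a filter on low counts or with the replicate block, each time through Gadd45a (0.0543 and 0.0669). With the adipocyte score as covariate the count was 0, and that of the pathway genes fell from 20 to 0. With total counts the median log2 fold change of all genes in WD vs. CD was 0.069, against 0.0013. In kidney, WD + CHP vs. CD, the count of 1 became 2 with DESeq2 or the replicate block and 0 with only the 2 groups compared (Igf1r 0.0620); without a filter it stayed 1, with Fst (0.0451) in place of Igf1r (0.0614); the tissue difference in WD vs. CD became 2 with DESeq2, which added Gadd45a (adjusted p = 0.0395). Without 1 library, the counts ran from 1 to 4 in gastrocnemius and 1 to 3 in kidney for WD vs. CD, 0 to 2 in kidney for WD + CHP vs. CD, 1 to 2 for the tissue difference in WD vs. CD and 0 to 1 for pathway genes in WD + CHP vs. WD. Fewer samples enter these fits.

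Signs turned only for small, uncalled log2 fold changes. With total counts, gastrocnemius Mstn in WD vs. CD was 0.0078, gastrocnemius Igfbp5 in WD + CHP vs. WD -0.0050 and kidney Igf1r in WD + CHP vs. WD -0.0059. Without a filter, gastrocnemius Foxo3 in WD vs. CD was -6.0e-05. With the adipocyte score, in WD + CHP vs. WD, gastrocnemius Fbxo32 was -0.11 and Fst 0.0079. With limma-voom, kidney Igf1 in WD + CHP vs. WD was 0.0019 and the tissue difference of Gadd45a -0.016 (replicate block: -0.013). The cause was not tested.

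Without 1 library, ranges crossing 0 in gastrocnemius were, for WD vs. CD, -0.045 to 0.073 (Foxo3) and -0.15 to 0.012 (Mstn); for WD + CHP vs. WD, -0.13 to 0.086 (Gadd45a), -0.21 to 0.021 (Igf1), -0.024 to 0.077 (Igfbp5), -0.12 to 0.037 (Mstn) and -0.10 to 0.20 (Trim63); and for WD + CHP vs. CD, -0.049 to 0.17 (Fst). In kidney they were, for WD vs. CD, -0.038 to 0.026 (Foxo1) and -0.13 to 0.038 (Foxo3); for WD + CHP vs. WD, -0.029 to 0.29 (Fbxo32), -0.032 to 0.028 (Foxo1), -0.094 to 0.045 (Foxo3), -0.19 to 0.092 (Gadd45a), -0.095 to 0.066 (Igf1) and -0.15 to 0.020 (Trim63); and for WD + CHP vs. CD, -0.16 to 0.036 (Fbxo32), -0.050 to 0.024 (Foxo1) and -0.16 to 0.028 (Foxo3). For the tissue difference they were, for WD vs. CD, -0.0095 to 0.15 (Foxo3) and -0.019 to 0.061 (Igf1r), and for WD + CHP vs. WD, -0.16 to 0.16 (Fbxo32), -0.15 to 0.012 (Foxo3), -0.12 to 0.19 (Gadd45a), -0.19 to 0.036 (Igf1) and -0.017 to 0.29 (Trim63).

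Libraries with the same number did not pair: correlations of their deviations from group means ran from -0.13 to 0.15 in gastrocnemius and -0.091 to 0.14 in kidney, over 0.1 in 2 of 15 pairs each. The block moved the count of all genes called in WD vs. CD from 1330 to 1147 in gastrocnemius and from 1652 to 1582 in kidney. Over all genes, the 1330 calls of WD vs. CD in gastrocnemius became 3 with the adipocyte score. For WD + CHP vs. WD, 63 calls in gastrocnemius became 249 with DESeq2, 40 without a filter and 0 with the adipocyte score, 18 in kidney became 194 with DESeq2, 37 without a filter, 70 with the block and 0 with only the 2 groups, and 65 tissue differences became 286 with DESeq2, 99 with total counts and 37 without a filter. With total counts, higher and lower calls went from 720 and 610 to 1506 and 346 in gastrocnemius for WD vs. CD, from 1070 and 1000 to 660 and 1814 in kidney for WD + CHP vs. CD, and from 423 and 349 to 1135 and 237 for the tissue difference in WD vs. CD. Depth limits kidney Fbxo32 (21 to 47 counts) and Mstn (0 counts).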
